A study of Mus musculus with 22 samples.

Results

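The genes of ketone use and branched-chain amino acid (BCAA) breakdown were followed in both ventricles of the neonatal mouse heart after pulmonary artery banding. They are 9 genes, taken by matching the Ensembl identifiers of the measured genes to gene symbols, out of 49671 genes listed for the left ventricle (LV) and 49670 for the right ventricle (RV). Bdh1, Oxct1 and Acat1 belong to ketone use. Bcat2, Bckdha, Bckdhb, Dbt, Bckdk and Ppm1k belong to BCAA breakdown. All 9 were found in both tables. The genotype label of every library is CD1, an outbred strain, and all carry batch label 1. Neonatal pulmonary artery banding (nPAB) with a 30G needle, which narrows the outlet of the RV, or a Sham operation was performed on postnatal day 1, and hearts were collected 7 days later. RNA of whole ventricular tissue from 6 nPAB and 5 Sham mice gave 22 libraries, 1 LV and 1 RV library per mouse, which form the groups RV Sham, RV nPAB, LV Sham and LV nPAB. The RV pumps against the band and is called the banded RV below, while the LV of the same heart does not pump against it.

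Ketone bodies are made mainly in the liver and burned in mitochondria of the heart, brain and muscle. There Bdh1 oxidises beta-hydroxybutyrate to acetoacetate, Oxct1 activates acetoacetate with coenzyme A from succinyl-CoA, and Acat1 splits the product into acetyl-CoA for the citric acid cycle. The BCAAs leucine, isoleucine and valine first lose their amino group to Bcat2, the mitochondrial aminotransferase. The resulting keto acids are then committed to oxidation by the branched-chain keto acid dehydrogenase complex, built from Bckdha, Bckdhb and Dbt. The kinase Bckdk phosphorylates the complex and switches it off, and the phosphatase Ppm1k switches it on again. The suckling period is a time of high blood ketones in rodents, because milk is rich in fat.

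Library depth was 7.11 to 11.3 M reads. RV Sham libraries averaged 8.61 ± 1.29 M (SD, n = 5), RV nPAB libraries 9.47 ± 0.550 M (n = 6), LV Sham libraries 8.10 ± 0.640 M (n = 5) and LV nPAB libraries 9.73 ± 1.22 M (n = 6). The levels below are the deposited normalized counts, which were scaled separately in the LV and the RV table. By the sex-linked genes, 9 of 11 mice had LV and RV libraries of the same sex, while in nPAB mice 6 and 7 the libraries that share a number were of different sex. All 7 cardiomyocyte markers were measured in every group, with summed levels of 332956 to 576316. At a limma adjusted p under 0.05, 1 rose and 3 fell in the RV, and 1 rose and 0 fell in the LV. Over all genes tested, 11.1% rose and 10.8% fell in the RV, and 4.76% rose and 4.55% fell in the LV. All 5 adipocyte markers were at or near 0, with a highest sum of 6.48. The 5 atrial markers summed to 495 to 2774 in RV Sham and 1069 to 10110 in RV nPAB libraries, and 1 of them, Kcna5, rose. The atrial light chain Myl7 lay above the highest RV Sham library (1775) in the RV libraries of nPAB mice 6 (6143), 8 (2961) and 11 (4082). Of the 3 nuclear RNAs used as a sign of RNA quality, Malat1 and Kcnq1ot1 fell in the RV and Malat1 in the LV. Their summed level was 20050 to 25240 in RV Sham against 9446 to 14865 in RV nPAB, and 15831 to 23612 in LV Sham against 10656 to 18811 in LV nPAB. The part of these RNAs and of the atrial markers in the results below was not tested beyond the values given.

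In the banded RV, 2 of the 8 members that could be tested rose (Bdh1 and Oxct1), 1 fell (Ppm1k) and 5 did not pass limma's test at an adjusted p of 0.05. Among all 13660 genes tested in the RV, 22.0% passed, 11.1% upwards and 10.8% downwards. In the LV, 2 of 7 tested members rose (Oxct1 and Bckdhb), 0 fell and 5 did not pass, against 9.31% of 13528 genes tested (4.76% upwards and 4.55% downwards). A gene was tested where its mean in the table was at least 10 normalized counts, which left out Bckdha in both ventricles and Bdh1 in the LV. Bdh1 reached that minimum in the RV only through its nPAB libraries, and of the 7 other members tested there 1 rose and 1 fell. Fold changes are differences of log2(normalized count + 1) from limma, nPAB minus Sham, given with their standard error, and adjusted p-values are Benjamini-Hochberg over all genes of the ventricle. In these tissue samples, fewer cells of a type and less RNA per cell cannot be told apart. The labels give an LV and RV pair the same number, taken here as 1 animal, although the sexes differed in nPAB mice 6 and 7. Litters are not stated.

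**Figure D1:**
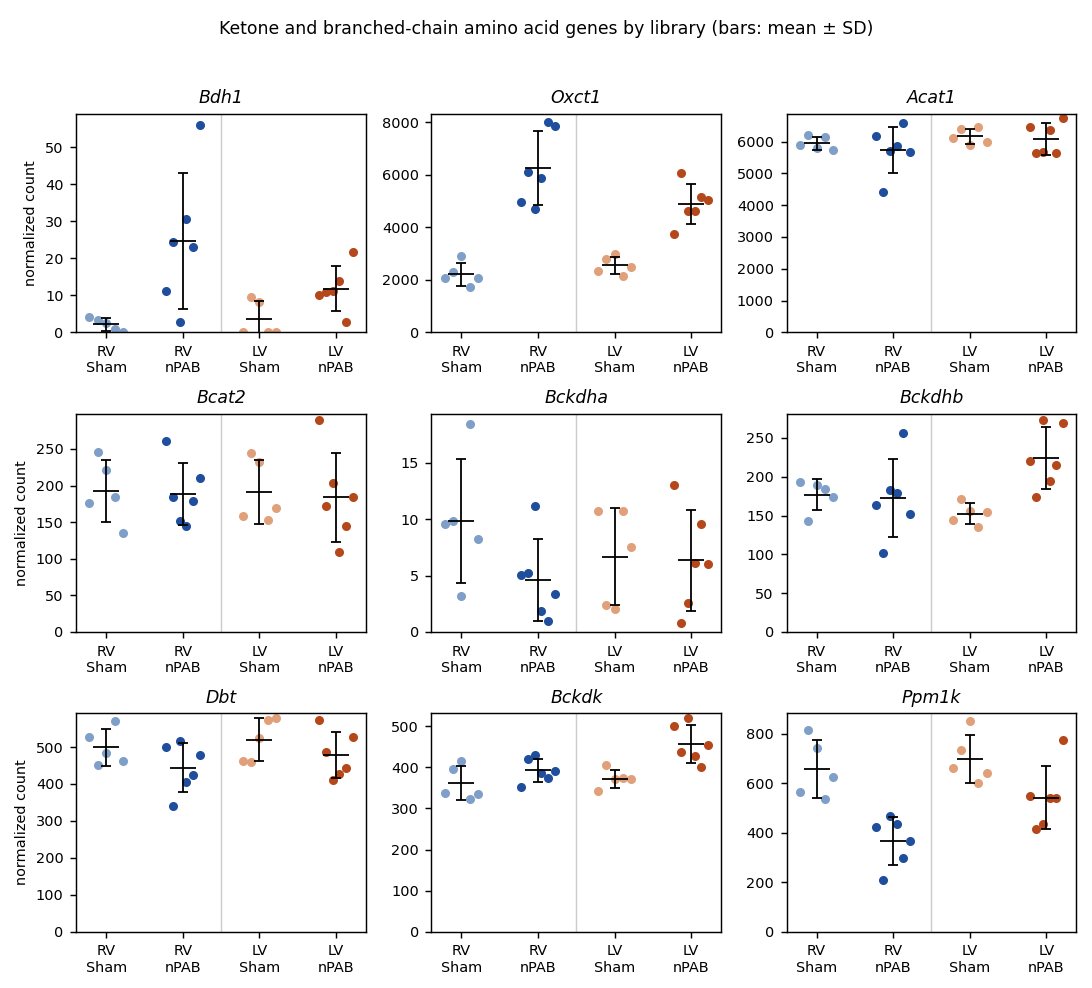
Normalized counts (vertical axis, from 0, a scale per gene) of the 9 genes in each library (points) by group, with the group mean and SD as bars; each ventricle has its own scaling. For Oxct1 all 6 nPAB points lie above the 5 Sham points in each ventricle, for Ppm1k all 6 RV nPAB points lie below the RV Sham points, and for Acat1 the groups overlap.

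Oxct1, the enzyme that commits acetoacetate to oxidation, was the member with the clearest rise and the only one that passed in both ventricles. The 5 RV Sham libraries of mice 9 to 13 held 2086, 2309, 2889, 1724 and 2048 normalized counts. The 6 RV nPAB libraries held from 4690 to 7995, with a median of 5984. Every banded RV library was above every Sham RV library, and the highest levels were in nPAB mice 10 and 11. The rise was 2.81-fold (log2 fold change 1.49 ± 0.16, limma adjusted p = 2.37e-05). In the LV, Sham libraries held 2345, 2788, 2978, 2134 and 2484, and nPAB libraries from 3756 to 6054 with a median of 4831. Here too the groups did not overlap, and nPAB mouse 5 was the lowest of the nPAB libraries and mouse 6 the highest. The LV rise was 1.91-fold (log2 fold change 0.93 ± 0.11, limma adjusted p = 5.75e-05). Without nPAB mice 6 and 7 the log2 fold changes were 1.59 in the RV (adjusted p = 1.27e-04) and 0.87 in the LV (adjusted p = 3.28e-04) in limma. Without the 3 RV libraries high in Myl7 the RV value was 1.39 (limma adjusted p = 0.00253).

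The RV rise of Oxct1 exceeded the LV rise by 0.56 ± 0.14 on the log2 scale, a difference within same-numbered pairs that did not pass (limma adjusted p = 0.179). In that comparison of the ventricles, 0 of 7 tested members passed and 1 gene of 13364 did, 0.00748%. The Oxct1 difference passed with count models on the recovered reads, at 0.55 with edgeR (adjusted p = 0.0107) and 0.55 with DESeq2 (adjusted p = 2.87e-04), which called 137 and 249 genes. It also passed in limma without mice 6 and 7, at 0.72 (adjusted p = 0.0442). In the other 21 of 24 alternatives run it did not pass, with limma adjusted p up to 0.57. Set as TPM (reads per exon length, scaled to the same total in each library), Oxct1 was higher in the RV than in the LV in 1 of 5 Sham mice, with RV to LV ratios of 0.794 to 1.01. It was higher in the RV in all 4 nPAB mice whose libraries were of the same sex, with ratios of 1.22 to 1.52. In nPAB mice 6 and 7 the same-numbered libraries gave 1.00 and 1.02, and crossing their LV libraries gave 1.34 and 0.759.

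Bdh1, which takes up the step before Oxct1, was rare in all libraries. In RV Sham the libraries held 4.25, 3.29, 2.38, 0.973 and 0 normalized counts, and RV nPAB libraries from 2.79 to 56.1 with a median of 23.6. In 5 of 6 banded RV libraries the level was above every Sham library, and nPAB mouse 7 lay within the Sham range. The rise had a log2 fold change of 2.82 ± 0.67 (limma adjusted p = 0.00518), with a 95% interval of 1.42 to 4.22. Its RV mean was 2.18 normalized counts in Sham and 24.6 in nPAB, so that it passed the minimum of 10 only through the group in which it was high. With no minimum, over 27647 genes, the same value had a limma adjusted p of 0.00281. At this level, 0 to 4 reads per Sham library and 3 to 50 per nPAB library, the size depends on the constant added, and it was 3.15 with 0.5 and 1.81 with 5 added. The 3 highest Bdh1 libraries were the 3 high in Myl7, those of nPAB mice 6, 8 and 11. Without them the log2 fold change was 1.93 and no longer passed (limma adjusted p = 0.186). Without the same libraries the calls over all genes went from 2999 to 1753. A part of atrial tissue in the Bdh1 value was not tested. In the LV, Sham libraries held 0, 9.66, 8.12, 0 and 0 and nPAB libraries 2.88 to 21.8 with a median of 11.0, so that 5 of 6 nPAB libraries lay above every Sham library. The LV mean was under the minimum, and with no minimum the LV log2 fold change was 2.18 ± 0.70 (limma adjusted p = 0.0930).

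Acat1, the last enzyme of ketone use and also the thiolase of isoleucine breakdown, was the most abundant member in counts in Sham hearts and did not pass in either ventricle. The RV of Sham mice held 5883, 6208, 5815, 6131 and 5724 normalized counts, and RV nPAB libraries 4424 to 6597 with a median of 5780. In LV Sham the libraries held 6120, 6385, 5880, 6445 and 5990, and LV nPAB libraries 5637 to 6751 with a median of 6027. The groups overlapped in each ventricle, and nPAB mouse 6 was the lowest RV library. As TPM the RV groups did not overlap, at 491 to 537 in Sham and 364 to 486 in nPAB, on a scale on which the median of all tested genes was also lower in nPAB. Banded against Sham, the log2 fold change was -0.06 in the RV (95% interval -0.24 to 0.12, limma adjusted p = 0.660) and -0.02 in the LV (-0.16 to 0.12, limma adjusted p = 0.885).

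The sequence just upstream of Oxct1 and Bdh1 is shown because these members were called as higher in the banded RV. The Bdh1 call carries the limits given above. It had few reads in Sham, reached the minimum only through nPAB libraries and was lost without the libraries high in Myl7. The bases come from RefSeq (GRCm38.p6), which lists a start for 7 of the 9 members, and end before the first annotated transcribed base. Oxct1 (ENSMUSG00000022186) lies on chromosome 15 from 4026383 to 4155344, plus strand, and the stretch is chr15:4026178-4026382. Bdh1 (ENSMUSG00000046598) lies on chromosome 16 from 31422280 to 31458901, plus strand, and the stretch is chr16:31422047-31422279. Both read 5′ to 3′ along the gene, and capitals mark a match to ACGTG, the core of the hypoxia response element, here on the opposite strand.
Oxct1: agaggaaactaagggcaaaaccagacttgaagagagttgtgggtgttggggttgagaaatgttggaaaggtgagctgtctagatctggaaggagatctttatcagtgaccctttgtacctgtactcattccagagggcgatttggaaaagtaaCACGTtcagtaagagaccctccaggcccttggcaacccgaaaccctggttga
Bdh1: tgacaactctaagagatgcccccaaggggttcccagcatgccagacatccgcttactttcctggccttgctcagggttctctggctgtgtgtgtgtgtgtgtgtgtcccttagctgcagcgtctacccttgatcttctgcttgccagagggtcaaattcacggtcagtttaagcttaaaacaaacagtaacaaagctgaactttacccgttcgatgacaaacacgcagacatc
In 250 bases before each start, both strands were searched for ACGTG, the E-box CACGTG (which holds ACGTG), the nuclear receptor half-site AGGTCA, the oestrogen-related receptor element TNAAGGTCA and the PPAR element, a tandem of half-sites with 1 base between (both elements hold AGGTCA). The windows of Oxct1 and Bdh1 ran on to 4026427 and 31422296, inside the annotated genes, and these last bases are not shown above. Oxct1 had 1 ACGTG, 97 to 93 bases before its RefSeq start, as do 16.6% of all 32851 promoters in at least 1 place. Bdh1 had no match to any of the motifs. Matches are descriptions of letters, not of binding.

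Bcat2, which removes the amino group, did not pass in either ventricle. The Sham RV libraries held 176, 246, 221, 184 and 135 normalized counts, and RV nPAB libraries 144 to 261 with a median of 182. The LV of Sham mice held 159, 244, 232, 153 and 169, and LV nPAB libraries 110 to 289 with a median of 178. The groups overlapped over most of their range, with nPAB mouse 5 highest in both ventricles. This gave a log2 fold change of -0.03 in the RV (95% interval -0.39 to 0.34, limma adjusted p = 0.931) and -0.09 in the LV (-0.53 to 0.34, limma adjusted p = 0.832).

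Of the subunits of the dehydrogenase complex, only Bckdhb, which encodes the beta subunit of its decarboxylase, passed, and it did so in the LV. The Sham LV libraries held 144, 172, 156, 136 and 155 normalized counts, and LV nPAB libraries 174 to 273 with a median of 218. The groups did not overlap, but the lowest nPAB library (mouse 6) was close to the highest Sham library (mouse 10). The LV rise was 1.45-fold (log2 fold change 0.54 ± 0.14, limma adjusted p = 0.0220). The call was lost without Sham mouse 9 (limma adjusted p = 0.0506), Sham mouse 12 (0.0595) or nPAB mouse 7 (0.0593), with log2 fold changes of 0.52, 0.50 and 0.48. Leaving out both nPAB mice 6 and 7 gave 0.55 (limma adjusted p = 0.0442). In the RV, Sham libraries held 193, 144, 189, 184 and 174 and nPAB libraries 102 to 257 with a median of 171. The RV nPAB libraries spread to both sides of the Sham range, at a log2 fold change of -0.08 ± 0.18 (limma adjusted p = 0.807). The RV change minus the LV change was -0.62 ± 0.21 and did not pass (limma adjusted p = 0.331).

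Dbt, the transacylase core of the complex, did not pass in either ventricle. RV Sham libraries held 527, 453, 483, 571 and 462 normalized counts, and RV nPAB libraries 341 to 517 with a median of 452. LV Sham libraries held 463, 459, 524, 574 and 579, and LV nPAB libraries 412 to 572 with a median of 465. In each ventricle 3 of 6 nPAB libraries lay below every Sham library and none above. The log2 fold change was -0.18 in the RV (95% interval -0.41 to 0.06, limma adjusted p = 0.292) and -0.12 in the LV (-0.35 to 0.10, limma adjusted p = 0.514).

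Bckdha, which encodes the alpha subunit of the decarboxylase, was near the detection limit. In RV Sham the libraries held 9.56, 9.87, 3.18, 18.5 and 8.22 normalized counts and RV nPAB libraries 1.00 to 11.2 with a median of 4.23. In LV Sham the libraries held 10.7, 2.42, 2.03, 10.8 and 7.53 and LV nPAB libraries 0.830 to 13.0 with a median of 6.10. All 4 ranges overlapped, and the mean was under the minimum for the test in both ventricles. With no minimum the log2 fold change was -1.03 in the RV (95% interval -2.18 to 0.11, limma adjusted p = 0.309) and -0.12 in the LV (-1.36 to 1.13, limma adjusted p = 0.938). In the annotation, 61.7% of the exon bases of Bckdha (1171 bases) are shared with B3gnt8 on the opposite strand, which itself averaged 18.8 in the RV and 26.7 in the LV. Whether counting used strand is not given in the sources used here, so the level of Bckdha is uncertain.

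The kinase Bckdk, which switches the complex off, did not pass in either ventricle. The RV of Sham mice held 338, 396, 415, 322 and 336 normalized counts, and RV nPAB libraries 353 to 430 with a median of 389. The LV of Sham mice held 343, 405, 371, 373 and 371, and LV nPAB libraries 400 to 521 with a median of 447. In the LV 5 of 6 nPAB libraries lay above every Sham library, and in the RV 2 of 6 did. Banded against Sham, the log2 fold change was 0.29 ± 0.10 in the LV (limma adjusted p = 0.0648, 0.0409 with the mouse as replicate block and 0.187 without nPAB mice 6 and 7) and 0.12 ± 0.10 in the RV (limma adjusted p = 0.423).

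Ppm1k, the phosphatase that switches the complex on, fell in the banded RV. The Sham RV libraries held 566, 813, 741, 538 and 623 normalized counts, and RV nPAB libraries 211 to 466 with a median of 394. Every banded RV library was below every Sham RV library, and nPAB mouse 6 was the lowest. The fall was 1.83-fold (log2 fold change -0.87 ± 0.18, limma adjusted p = 0.00344). It was -0.79 without nPAB mice 6 and 7 (limma adjusted p = 9.42e-04) and -0.74 without the RV libraries high in Myl7 (limma adjusted p = 0.00904). In the LV, Sham libraries held 659, 734, 850, 599 and 643, and nPAB libraries 413 to 774 with a median of 539. There 5 of 6 nPAB libraries lay below every Sham library, and nPAB mouse 11 lay within the Sham range. The LV log2 fold change of -0.38 ± 0.14 did not pass (limma adjusted p = 0.0888), and was at -0.49 without mouse 11 (limma adjusted p = 0.00922) and at -0.22 without mice 6 and 7 (limma adjusted p = 0.338). The RV change minus the LV change was -0.49 ± 0.25 (limma adjusted p = 0.507).

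Counted by separation, Oxct1 and Ppm1k had no overlap between nPAB and Sham libraries in the RV, and Oxct1 and Bckdhb in the LV. Of all genes tested, 12.9% had no overlap in the RV (6.84% with nPAB higher and 6.06% with nPAB lower) and 6.53% in the LV (3.38% higher and 3.16% lower). Over the 2 ketone members tested in both ventricles, Oxct1 and Acat1, the median log2 fold change was 0.71 in the RV and 0.46 in the LV. With 2 genes this is only a midpoint. Oxct1 was at 1.49 in the RV and 0.93 in the LV, and Acat1 at -0.06 and -0.02. The median was -0.08 over the 5 tested BCAA members in the RV and -0.09 in the LV. Over all genes tested it was 0.00 and -0.01.

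**Figure D2:**
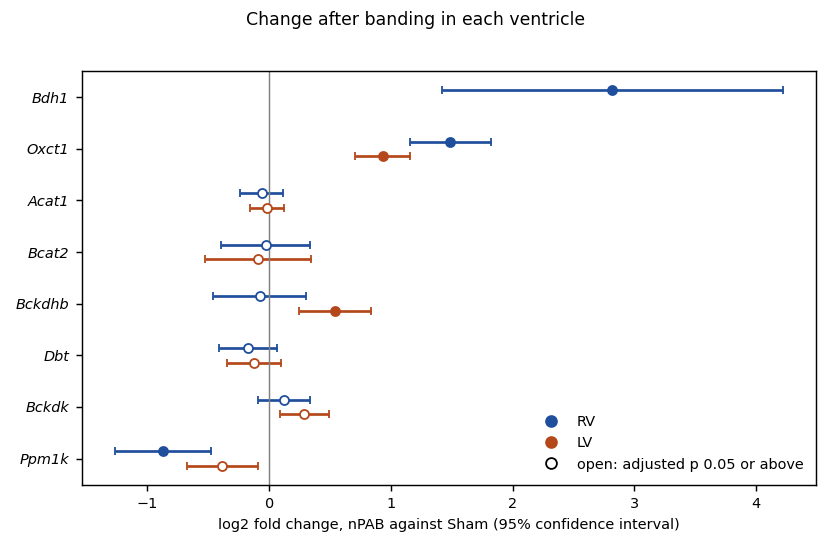
Log2 fold change of nPAB against Sham (horizontal axis) with its 95% confidence interval from limma for each tested member in the RV (blue) and LV (orange); filled points have an adjusted p under 0.05. Bdh1 (2.82) and Oxct1 (1.49) lie to the right and Ppm1k (-0.87) to the left in the RV, while the intervals of Acat1, Bcat2 and Dbt hold 0 in each ventricle.

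The sequence upstream of the BCAA members that passed is shown beside their change, again from RefSeq (GRCm38.p6). Ppm1k (ENSMUSG00000037826) lies on chromosome 6 from 57506502 to 57535468, minus strand, and the stretch is chr6:57535488-57535737. Bckdhb (ENSMUSG00000032263) lies on chromosome 9 from 83925145 to 84124240, plus strand, and the stretch is chr9:83924887-83925136. Both read 5′ to 3′ along the gene, and capitals mark AGGTCA, the half-site bound by many nuclear receptors.
Ppm1k: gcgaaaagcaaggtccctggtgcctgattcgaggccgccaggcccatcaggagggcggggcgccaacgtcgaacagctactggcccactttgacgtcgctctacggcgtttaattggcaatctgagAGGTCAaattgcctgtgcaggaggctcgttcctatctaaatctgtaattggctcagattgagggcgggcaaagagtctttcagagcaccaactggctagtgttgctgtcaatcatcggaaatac
Bckdhb: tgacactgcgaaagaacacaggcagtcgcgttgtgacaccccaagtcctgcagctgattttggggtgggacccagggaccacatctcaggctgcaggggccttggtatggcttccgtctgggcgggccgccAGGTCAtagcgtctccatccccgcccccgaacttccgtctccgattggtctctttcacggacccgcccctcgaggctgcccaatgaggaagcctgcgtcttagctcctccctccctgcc
Ppm1k had the half-site 124 to 119 bases before its start and Bckdhb 119 to 114 bases before the one shown, as 14.0% of all promoters do in at least 1 place. Bcat2 had a match to ACGTG before each of its listed starts, and Bckdha and Bckdk had none of the motifs. No match to the oestrogen-related receptor element, found in 1.14% of all promoters, or the PPAR element (0.0335%) lay in the windows of the 7 members. The E-box, in 6.02% of promoters, was likewise without a match in the members, while Klf15 and Slc16a1, described below, had it.

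Set per length as TPM, Acat1 and Oxct1 were the most abundant members in all groups. On this scale the median log2 ratio of nPAB to Sham means over all tested genes was -0.16 for the RV and -0.11 for the LV, while for normalized counts it was close to 0 in both. In RV Sham, Acat1 averaged 515 ± 17.3 TPM (SD, n = 5), ahead of Oxct1 at 195 ± 41.3, with no overlap of their ranges. In RV nPAB, Oxct1 averaged 488 ± 92.8 TPM (n = 6) and Acat1 442 ± 46.2, and their ranges overlapped. Oxct1 was above Acat1 in the RV libraries of nPAB mice 6, 8, 10 and 11 and below it in those of mice 5 and 7. In LV Sham, Acat1 averaged 531 ± 26.6 TPM and Oxct1 223 ± 28.7, again without overlap, and in LV nPAB they were at 486 ± 32.9 and 396 ± 68.4 with overlap. The BCAA members sat a step lower in all groups. In RV Sham, Dbt averaged 48.5 TPM, Ppm1k 35.5, Bckdhb 31.9, Bckdk 31.9 and Bcat2 16.1, and the ranges of Ppm1k, Bckdhb and Bckdk overlapped. In RV nPAB the order was Dbt 38.5, Bckdk 31.0, Bckdhb 27.6, Ppm1k 17.7 and Bcat2 14.0 TPM, each overlapping the next. In LV Sham it was Dbt 50.2, Ppm1k 37.5, Bckdk 32.6, Bckdhb 27.3 and Bcat2 15.9 TPM, with overlaps among the first 4. In LV nPAB it was Dbt 42.7, Bckdhb 37.2, Bckdk 37.1, Ppm1k 26.8 and Bcat2 14.1 TPM, each overlapping the next. Bckdha and Bdh1 stood at the foot, with group means between 0.183 and 1.81 TPM.

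Ratios within a library, which need no scaling between libraries, describe the same shifts and carry no test because they reuse the values above. Oxct1 per Acat1 was 0.378 ± 0.0793 (SD, n = 5) in RV Sham and 1.12 ± 0.265 (n = 6) in RV nPAB, and 0.421 ± 0.0660 in LV Sham and 0.822 ± 0.172 in LV nPAB. The kinase per phosphatase, Bckdk per Ppm1k, was 0.906 ± 0.0756 in RV Sham and 1.90 ± 0.713 in RV nPAB. In the LV it was 0.883 ± 0.113 in Sham and 1.44 ± 0.361 in nPAB. In the RV the lowest nPAB ratio (1.37) was above the highest Sham ratio (0.976), while in the LV the ranges overlapped.

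**Figure D3:**
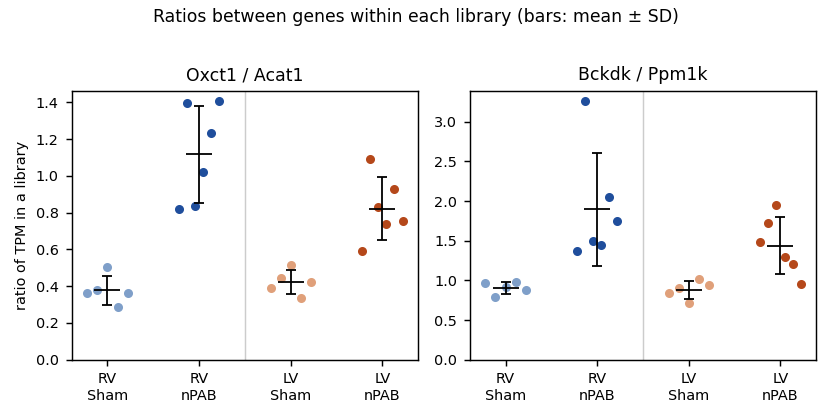
Ratio of TPM values between 2 genes within each library (points, linear axis from 0) by group, with the group mean and SD as bars. Oxct1 per Acat1 is at 0.818 or above in RV nPAB and at 0.505 or below in RV Sham, and Bckdk per Ppm1k reaches 3.26 in the RV library of nPAB mouse 6.

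The genes around the members were read from lists of 59 pathway genes, of which 54 were tested in each ventricle. In the RV 8 of the 54 rose, 3 fell and 43 did not pass, and in the LV 6 rose, 2 fell and 46 did not pass. Among all genes tested, 22.0% passed in the RV (11.1% upwards, 10.8% downwards) and 9.31% in the LV (4.76% and 4.55%). In the difference between the ventricles 0 of 54 passed. Of 21 tested genes of the leucine, isoleucine, valine and propionate arms, which carry the carbon skeletons on to the citric acid cycle, 1 rose in the RV, 0 fell and 20 did not pass, and in the LV none passed. Their median log2 fold change was 0.09 (all tested genes 0.00) in the RV and 0.11 (all tested genes -0.01) in the LV. The 1 gene that rose was Mmab, an enzyme of vitamin B12 handling (log2 fold change 0.84 ± 0.23 in the RV, limma adjusted p = 0.0120). It was at 0.70 without the RV libraries high in Myl7 (limma adjusted p = 0.120) and at 0.15 in the LV (limma adjusted p = 0.763). Of 7 transamination genes and complex partners 0 passed in either ventricle. Among them Bcat1, the cytosolic aminotransferase, was low, at 41.7 ± 14.4 normalized counts in RV Sham and 52.8 ± 30.5 in RV nPAB (limma adjusted p = 0.845), and at 32.1 ± 16.7 and 32.1 ± 24.1 in the LV (limma adjusted p = 0.911).

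**Figure D4:**
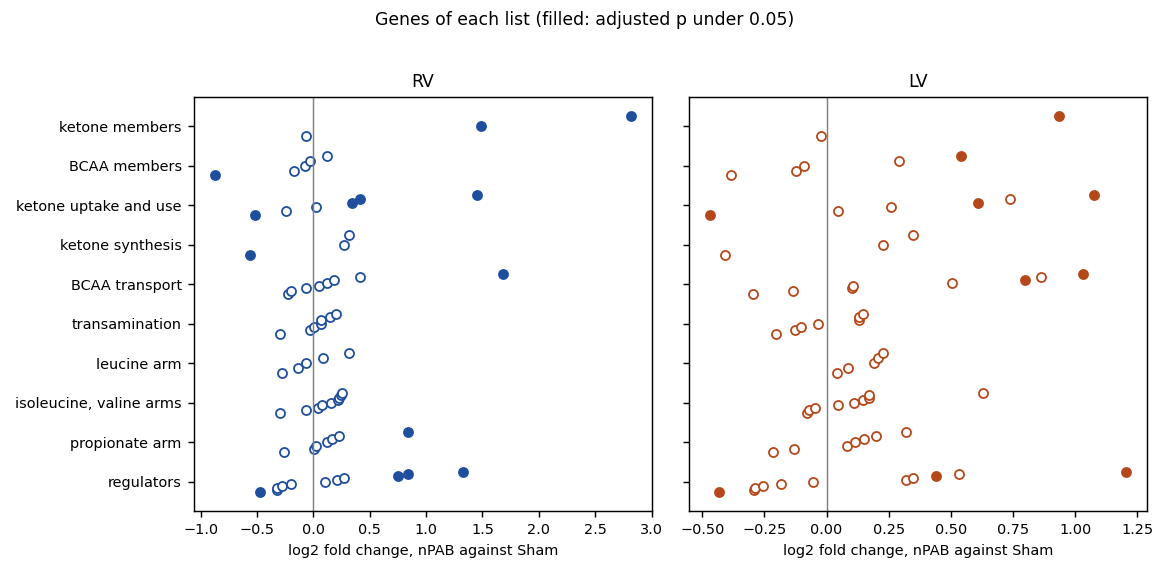
Log2 fold change of nPAB against Sham (horizontal axis) for each tested gene of the member and pathway lists (rows) in the RV (left) and LV (right); each point is a gene and filled points have a limma adjusted p under 0.05. The leucine, isoleucine and valine rows hold no filled point in either panel, and Mmab (0.84) is the filled point of the propionate row in the RV.

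Of 5 genes listed with ketone synthesis and its fatty acid supply, 3 were tested, of which 1 fell in the RV and 0 passed in the LV. By comparison, 10.8% of all genes tested fell in the RV and 9.31% passed in the LV. The gene that fell was Cpt1a, a carnitine palmitoyltransferase that lets long-chain fatty acids into mitochondria. The Sham RV libraries held 827, 822, 864, 901 and 883 normalized counts and the RV nPAB libraries 459 to 669 with a median of 596. In the LV, Sham libraries held 687, 707, 781, 821 and 764 and nPAB libraries 336 to 684 with a median of 617. Every nPAB library lay below every Sham library in each ventricle, and nPAB mouse 10 was the lowest in both. The fall had a log2 fold change of -0.56 ± 0.09 in the RV (limma adjusted p = 3.63e-04). In the LV it was at -0.41 ± 0.15 and did not pass (limma adjusted p = 0.0958, 0.0251 with the mouse as replicate block and 0.207 without nPAB mice 6 and 7). Without nPAB mouse 10 it was at -0.26.

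Of 6 tested genes of ketone uptake and use outside the members, 3 rose and 1 fell in the RV, and 2 rose and 1 fell in the LV. For comparison, 22.0% of all genes tested passed in the RV and 9.31% in the LV. Slc16a1, the monocarboxylate transporter MCT1 that carries ketones and lactate across the cell membrane, rose in both. In RV Sham the libraries held 1146, 1132, 1135, 1215 and 1479 normalized counts and RV nPAB libraries 1379 to 1810 with a median of 1623. LV Sham libraries held 1082, 962, 1018, 1011 and 1206 and LV nPAB libraries 1402 to 1868 with a median of 1632. The LV groups did not overlap, and in the RV only Sham mouse 13 reached into the nPAB range. The log2 fold change was 0.41 ± 0.09 in the RV (limma adjusted p = 0.00264) and 0.61 ± 0.09 in the LV (limma adjusted p = 2.82e-04). Its chaperone Bsg rose in the RV (0.34 ± 0.08, limma adjusted p = 0.00651), a call lost without the libraries high in Myl7 (0.24, limma adjusted p = 0.0848), and was at 0.05 in the LV (limma adjusted p = 0.767).

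The related transporter Slc16a7 fell, by 0.52 on the log2 scale in the RV (limma adjusted p = 0.0359) and by 0.47 in the LV (limma adjusted p = 0.0312). These calls were lost without any 1 of 6 mice in the RV (Sham 9, 11 and 12, nPAB 5, 8 and 11, adjusted p up to 0.0882) and of 5 in the LV (Sham 9, 10 and 12, nPAB 8 and 11, up to 0.0806). Slc16a6, another member of the transporter family, rose by 1.45 ± 0.26 in the RV (limma adjusted p = 9.64e-04) and by 1.07 ± 0.21 in the LV (limma adjusted p = 0.00365). It shares 21.5% of its exon bases with Amz2 on the opposite strand, which averaged 424 normalized counts in the RV, so its level is uncertain.

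Of 8 tested genes of BCAA transport, 1 rose in the RV and 2 in the LV, and 0 fell. Beside this, 11.1% of all genes tested rose in the RV and 4.76% in the LV. Slc7a5, the light chain of the large neutral amino acid exchanger LAT1, rose in the RV. The RV of Sham mice held 31.9, 26.3, 42.9, 44.7 and 45.8 normalized counts and RV nPAB libraries 97.0 to 168 with a median of 125. The groups were far apart, at a log2 fold change of 1.68 ± 0.21 (limma adjusted p = 2.13e-05). In the LV, Sham libraries held 79.9, 23.0, 32.5, 75.3 and 58.1 and nPAB libraries 69.0 to 147 with a median of 105, and 4 of 6 nPAB libraries lay above every Sham library. The LV rise of 1.03 ± 0.31 (limma adjusted p = 0.0425) was lost without any 1 of 7 mice (Sham 10, 11 and 13, nPAB 5, 6, 10 and 11), with log2 fold changes of 0.77 to 1.10 and adjusted p up to 0.110. It was also lost with edgeR (0.94, adjusted p = 0.0579). Slc3a2, the heavy chain of the same exchanger, rose in the LV (0.80 ± 0.20, limma adjusted p = 0.0168; 0.0565 without nPAB mice 6 and 7) and was at 0.41 ± 0.17 in the RV (limma adjusted p = 0.0977). Slc25a44, which carries BCAAs into mitochondria, was at 0.05 in the RV (limma adjusted p = 0.878) and 0.10 in the LV (limma adjusted p = 0.757).

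**Figure D5:**
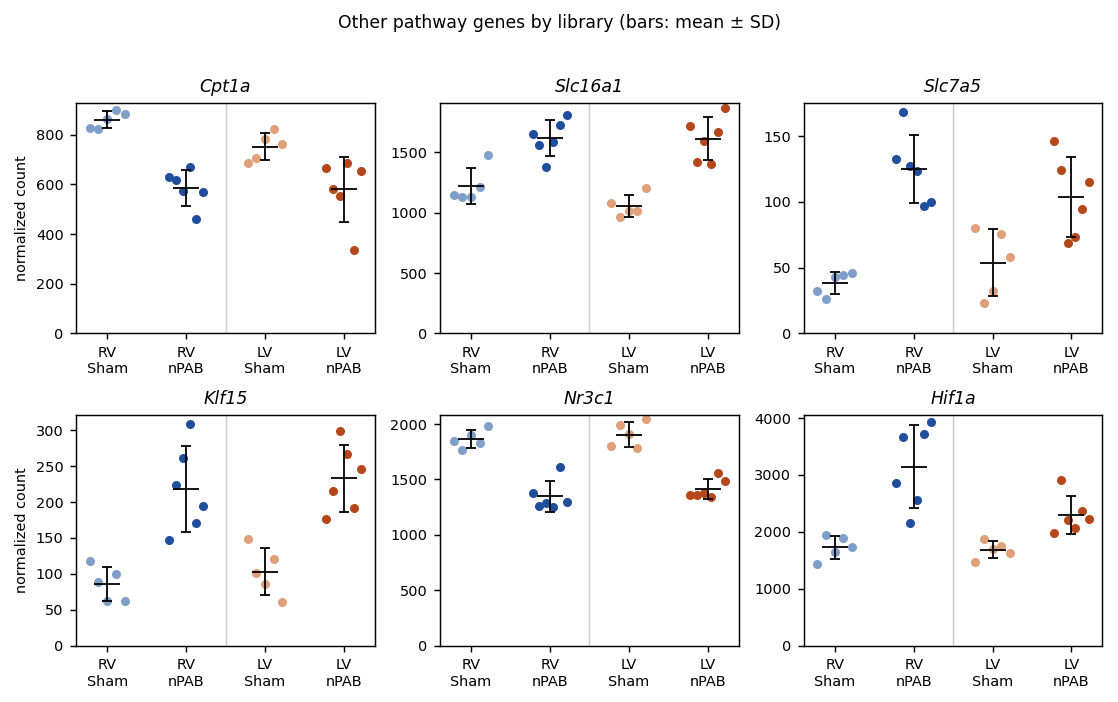
Normalized counts (vertical axis, from 0, a scale per gene) of 6 pathway genes outside the members in each library (points) by group, with the group mean and SD as bars. Cpt1a and Nr3c1 are lower in all 6 nPAB libraries than in all 5 Sham libraries of the same ventricle, and Klf15 and Hif1a are higher; Slc7a5 is separated in the RV only.

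Of 11 tested regulators, 3 rose and 1 fell in the RV, and 2 rose and 1 fell in the LV. The shares that passed over all genes tested were 22.0% in the RV and 9.31% in the LV. Klf15, a transcription factor known to drive BCAA breakdown genes in the heart, rose in both ventricles. The Sham RV libraries held 118, 88.8, 61.9, 99.2 and 62.2 normalized counts and RV nPAB libraries 147 to 309 with a median of 209. In LV Sham the libraries held 148, 101, 86.3, 121 and 60.3 and LV nPAB libraries 177 to 299 with a median of 231. The groups did not overlap in either ventricle. Banded against Sham, the log2 fold change was 1.33 ± 0.21 in the RV (limma adjusted p = 1.94e-04) and 1.20 ± 0.20 in the LV (limma adjusted p = 0.00110). Of the 5 tested BCAA members, 0 rose and 1 fell in the RV, and 1 rose and 0 fell in the LV. These few genes stand beside the same shares over all genes, and a part of Klf15 in them was not tested.

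Nr3c1, the glucocorticoid receptor gene, fell by 0.47 ± 0.08 on the log2 scale in the RV (limma adjusted p = 2.94e-04) and by 0.43 ± 0.07 in the LV (limma adjusted p = 8.86e-04), with no overlap of the groups. Hif1a, the hypoxia-inducible factor gene, rose by 0.84 ± 0.14 in the RV (limma adjusted p = 8.51e-04) and by 0.44 ± 0.09 in the LV (limma adjusted p = 0.00626), also without overlap. Esrrb, an oestrogen-related receptor, rose in the RV (0.75 ± 0.21, limma adjusted p = 0.0138) and was at 0.53 ± 0.27 in the LV (limma adjusted p = 0.231). Ppargc1a, the coactivator PGC-1 alpha, was at -0.32 ± 0.11 in the RV (limma adjusted p = 0.0525) and -0.25 ± 0.10 in the LV (limma adjusted p = 0.109). The RV value passed with edgeR (adjusted p = 0.0464) and DESeq2 (adjusted p = 0.0346), and with the mouse as replicate block (limma adjusted p = 0.0285), while over all alternatives run its adjusted p was 0.0214 to 0.146.

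For each member, the gene with the most similar profile was sought among 9783 genes over the 22 libraries, by Pearson's r of log2 values centred within each ventricle's table. The libraries include the nPAB and Sham groups, so a common response to banding enters the value. Oxct1 was closest to Adamtsl5 (r = 0.96), which had log2 fold changes of 1.91 in the RV and 1.06 in the LV. Ppm1k was closest to Ube2e3 (r = 0.92), which had log2 fold changes of -0.41 and -0.20. Bdh1 was closest to Gpx4 (r = 0.86), Bckdk to Casc4 (r = 0.84), Bckdhb to Sar1b (r = 0.82) and Acat1 to Ndufb11 (r = 0.82). Bckdha was closest to Zfp618 (r = 0.81), Dbt to Slc25a20 (r = 0.78) and Bcat2 to Eif3m (r = 0.78). Each r is the highest over all 9783 genes, a choice that raises it, and none was tested. Bckdha, with 1 to 19 reads per library, and Bdh1, with 0 to 50, were matched at low counts.

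The remaining members are placed as follows in mm10. Acat1 (ENSMUSG00000032047) lies on chromosome 9 from 53580522 to 53610382, minus strand, and Dbt (ENSMUSG00000000340) on chromosome 3 from 116513070 to 116549981, plus strand. On chromosome 7 lie Bcat2 (ENSMUSG00000030826) from 45570153 to 45589711, plus strand, Bckdha (ENSMUSG00000060376) from 25629946 to 25658981, minus strand, and Bckdk (ENSMUSG00000030802) from 127904082 to 127910221, plus strand. All 9 members are protein-coding genes, and the values sum reads over their exons.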

How the data were processed

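Total RNA came from a Qiagen RNeasy Plus kit and went into Revelo High Sensitivity libraries, per the labels' protocols. The tools cutadapt, featureCounts and DESeq2 and the build mm10 are listed in the submitters' processing notes, without versions. For the aligner and the use of strand, nothing was given in the sources used here. For each ventricle the authors deposited a table in which the signal is the gene count divided by a DESeq2 size factor, per the labels. Dividing by the worth of 1 read returned whole numbers for 100% of values (within 0.001), which gave the reads, depths and TPM. Coordinates, symbols and exon lengths came from GENCODE for mm10.

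The tests used limma 3.58.1 in R 4.3.3 with eBayes set to trend and robust, on log2(value + 1) of all genes averaging at least 10. Tests were two-sided, and Benjamini-Hochberg adjusted p-values under 0.05 were called. The difference between ventricles was tested on log2 RV minus log2 LV per mouse. Same-numbered LV and RV libraries were taken as 1 mouse, although those of nPAB mice 6 and 7 differed in sex. The correlation of their deviations from the group means was lowest in nPAB mouse 7 (-0.00085), next in mouse 6 (0.119) and between 0.197 and 0.411 for the other 9.

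The members, gene lists and tests were chosen with earlier results of these data known, and the motifs, and the setting without RV libraries high in Myl7, after the data were seen. Named outside the members were Slc16a1, Slc25a44, Bcat1, Klf15, Ppargc1a and up to 4 further genes per list that passed in a ventricle. An item the rule covers is not reported here. Marker lists of cardiomyocytes, atrial cells, adipocytes and RNA quality are given in the text. In the lists of fibroblasts, endothelium, smooth muscle with pericytes, macrophages, erythroid cells and epicardium, with 5 genes each, 0, 0, 1, 0, 1 and 0 rose and 1, 0, 1, 0, 0 and 0 fell in the RV. In the LV none of them rose and 1 smooth muscle and pericyte gene fell. Over all genes tested, 11.1% rose and 10.8% fell in the RV, and 4.76% rose and 4.55% fell in the LV. Alternatives left out each mouse, used edgeR 4.0.16 or DESeq2 1.42.0, added sex, library weights or the mouse as block, and varied scaling, pseudocount, filter and variance model. The tests were checked on simulated data. Figures used matplotlib 3.10.9.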

Additional observations from a re-analysis of the deposited data

Results flagged for a closer look

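In each group, the highest and lowest library of every named gene were compared with the nearest other library, and a gap beyond Dixon's 95% value was noted. Of 96 groups 6 had such a library, and chance gives about 1 in 20. Among the members this was Ppm1k in the LV of nPAB mouse 11, which at 773.9 normalized counts stood above the other LV nPAB libraries. Slc16a1 (1479) and Slc16a6 (152.6) stood high in the RV of Sham mouse 13. Slc16a6 stood low in the RV of nPAB mouse 7 (108.9) and Cpt1a low in the LV of nPAB mouse 10 (336.4). Nr3c1 stood high in the RV of nPAB mouse 10 (1613).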

How the results depend on the processing

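Oxct1, Bdh1 and Ppm1k kept direction and call in the RV under all alternatives run but the exception named in the report for Bdh1. Over their alternatives, limma, edgeR and DESeq2 adjusted p-values reached at most 0.00253 for Oxct1, 0.186 for Bdh1 and 0.0150 for Ppm1k in the RV, 0.00606 for Oxct1 and 0.0595 for Bckdhb in the LV, and 0.0882 for Slc16a7 in the RV. Bckdk in the LV lay between 0.0358 and 0.187. Bdh1 could not be tested in the RV with a mean of at least 50 or in the joint fit. With no minimum, Bckdha and the LV value of Bdh1 could be tested and did not pass.

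Counts of genes called changed as follows. Without 1 mouse at a time, the RV had 2395 to 3015 calls, the LV 842 to 1288 and the difference 0 to 20, where leaving out nPAB mouse 7 gave 20 and nPAB mouse 6 gave 11. Without the RV libraries high in Myl7, 1753 were called in the RV. In the LV 739 were called without the trend and robust options and 670 without mice 6 and 7. In the difference 249 were called with DESeq2, 137 with edgeR, 35 with a mean of at least 50, 29 without mice 6 and 7, 9 with library weights and 0 with a pseudocount of 0.5, against 1 in limma, where 1474 had an unadjusted p under 0.05. With the mouse as replicate block in a joint fit, the RV had 3124 calls and the LV 1523. The difference had 5 calls with no replicate block and 0 with the block of mice 6 and 7 crossed. Beyond the genes named in the report, the replicate block changed no call of a named gene.

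Of 1626 values under an alternative, 42 turned direction, none of them in a comparison in which the gene was called. Without mice 6 and 7 the log2 fold change was 0.0283 for Acat1 in the RV and 0.0301 in the LV, 0.0424 for Bcat2, 0.0642 for Bckdhb and -0.126 for Bcat1 in the RV, and -0.0732 for Mmab in the LV. Without the RV libraries high in Myl7 it was 0.0459 for Acat1, 0.0266 for Bcat2 and 0.167 for Bckdhb. Bcat2 was at 0.0317 in the RV with library weights, and Bcat1 at 0.0169 with edgeR and 0.00769 with DESeq2 in the LV. Without 1 mouse at a time the RV ranges were -0.105 to 0.00998 for Acat1, -0.148 to 0.0662 for Bcat2, -0.202 to 0.0621 for Bckdhb, -0.0261 to 0.147 for Slc25a44 and -0.0784 to 0.474 for Bcat1. The LV ranges were -0.0514 to 0.000679 for Acat1, -0.233 to 0.0448 for Bcat2, -0.482 to 0.217 for Bcat1 and -0.0708 to 0.26 for Mmab. For the difference they were -0.106 to 0.0093 for Acat1, -0.0204 to 0.16 for Bcat2, -0.14 to 0.0289 for Dbt, -0.154 to 0.0923 for Slc25a44, -0.0107 to 0.744 for Bcat1 and -0.129 to 0.0827 for Slc16a7. The cause of these changes was not tested.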
